A study of Mus musculus with 6 samples.

Results

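The axon guidance ligands and receptors of kisspeptin cells were the genes whose symbols name a semaphorin, plexin, neuropilin, Slit, Robo, ephrin, Eph receptor, netrin, netrin-G, Unc5 receptor, Dcc or Neo1. The group was chosen with earlier results of these data known. Its members were found by symbol, and 70 of the 13886 genes in the expression table matched, 36 ligands and 34 receptors. Of 72 mouse symbols of this form, only *Epha1* and *Efna4* had no row. RNA came from the medial amygdala (MeA) of adult female Kiss1Cre+/Rpl22HA+/+ mice, in which Cre driven by the *Kiss1* gene switches on a hemagglutinin (HA) tag on the ribosomal protein Rpl22, so that antibody to HA pulls down ribosomes of *Kiss1* cells with their mRNA (RiboTag). The tag is permanent once Cre has acted, so cells that expressed *Kiss1* earlier in life can carry it too. All mice, in both groups, were ovariectomized at 8 weeks of age, given estradiol (E2) for 4 days to drive Cre and then left 7 days without it. The E2 group then received a new E2 capsule for 5 days and the OVX group received none. Each group had 3 libraries, each made from the pooled MeA micropunches of 4 mice, so the spread between libraries is a spread between pools. Cre-negative pulldowns and input RNA were not analysed here, so background RNA carried through the pulldown was not measured.

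Axon guidance molecules steer growing axons by attraction and repulsion, and in the adult brain many of them act at synapses and on dendritic spines. Semaphorins signal through plexins, often with a neuropilin as co-receptor, Slits signal through Robo receptors, ephrins and Eph receptors are both bound to membranes and can signal in both directions, and netrins attract through Dcc or repel through Unc5 receptors. Estradiol acts on many neurons of the medial amygdala, a forebrain nucleus that processes social and olfactory cues and responds to sex steroids. The question put to these genes was which of them the tagged ribosomes carried and which differed in level between OVX and E2 females.

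Scaled library sizes rebuilt from the deposited values were 28.1M to 34.2M, and the rebuilt counts summed to 28.3M to 34.3M per library. *Kiss1* checked the labels: its main row (ENSMUSG00000115958) stood at log2 CPM 1.13 to 2.29 in OVX and 3.45 to 3.80 in E2 libraries, and rose by 1.91 (limma adjusted p = 0.00475). General neuron markers were balanced, 4 of 8 higher and none with an unadjusted p under 0.05 by limma. A list for *Kiss1* cells, *Kiss1* included, named 7 genes with 8 measured rows. Among the rows 7 were higher with E2 and 1, *Esr1*, was lower. By limma 6 (75.0%) had an unadjusted p under 0.05, beside 8.56% of all genes, and 2 passed the adjusted threshold. The rows summed to 958 to 1077 CPM in OVX and 1096 to 1266 CPM in E2 libraries. Markers of other cells were present and some moved with the groups, but the marker lists were chosen with earlier results of these data known. None of 9 markers of excitatory forebrain neurons was higher with E2, with a median difference of -0.42. Of these, 7 (77.8%) had an unadjusted p under 0.05 by limma, beside 8.56% of all genes, and 0 passed the adjusted threshold. Their summed level was 1174 to 1465 CPM in OVX and 892 to 1165 CPM in E2 libraries. Of the 4 measured erythroid markers, all 4 were higher with E2 and 2 passed the test, and all 5 choroid plexus markers were lower, with 0 passing the test and 2 at an unadjusted p under 0.05 by limma. Of glial markers, all 8 of astrocytes, 7 of 8 of oligodendrocytes and 4 of 5 of their precursors were higher with E2, with 2, 1 and 3 at an unadjusted p under 0.05 and 0 past the adjusted threshold by limma. Of 5 measured fibroblast markers, 4 were higher and 1 lower with E2, with a median of 0.06. Only *Col1a1*, a fibroblast collagen, passed, with a rise of 1.18 (limma adjusted p = 0.0469), while *Col1a2* had a difference of 0.00086. The part of these cells in the results below was not tested. The excitatory forebrain marker mean served as a covariate in an alternative, but it cannot be told apart from the treatment. The 9 endothelial and mural markers summed to 311 CPM in OVX replicate 2 and to 164 to 252 CPM in the other 5 libraries.

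*Robo3* and *Epha4* were the 2 members that passed the test, *Robo3* higher and *Epha4* lower with E2, and their promoters are shown for that reason. The stretches run from 250 bases before to 50 bases after the RefSeq start on GRCm38.p6, 5′ to 3′ on the gene's own minus strand: chr9:37433126-37433425 for *Robo3* and chr1:77515039-77515338 for *Epha4*. Capitals mark GGGCGG, a GC box, on either strand (CCGCCC on the printed strand), and GGTCA, a single arm of the estrogen response element.
Robo3: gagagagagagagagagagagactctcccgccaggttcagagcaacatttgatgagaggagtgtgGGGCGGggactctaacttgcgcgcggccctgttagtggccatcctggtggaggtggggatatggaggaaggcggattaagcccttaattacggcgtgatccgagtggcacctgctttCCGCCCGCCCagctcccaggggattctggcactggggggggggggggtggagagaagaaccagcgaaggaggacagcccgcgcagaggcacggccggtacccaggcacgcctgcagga
Epha4: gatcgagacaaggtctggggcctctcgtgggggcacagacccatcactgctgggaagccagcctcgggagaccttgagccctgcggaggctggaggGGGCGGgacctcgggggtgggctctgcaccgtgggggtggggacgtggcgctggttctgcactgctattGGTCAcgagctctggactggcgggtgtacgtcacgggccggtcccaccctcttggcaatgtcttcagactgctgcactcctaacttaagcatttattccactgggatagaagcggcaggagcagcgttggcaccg
The *Robo3* stretch held no GGTCA on either strand, and its GC boxes started at -185, -68 and -64 relative to the start, the last pair overlapping on the opposite strand. The *Epha4* stretch held 1 GGTCA at -85 and 1 GC box at -154. RefSeq promoters were found by symbol for 60 of the 70 members, 76 in all. The *Ntn3* promoter counted here belongs to that gene and not to the row measured under its symbol, as described below. The complete element, GGTCA and TGACC with 3 bases between them, was found in 0 of these 76 and in 0.07% of all 32851 promoters of the same length, and GGTCA on either strand in 34.2% against 40.5%. GC boxes stood in 54 of the 76 member promoters, against 35.7% of all promoters, TGANTCA, a site of AP-1, in 3 against 7.81%, and the median GC content was 64.3% against 52.7%. A match of letters describes the window and is not evidence of binding.

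Across the whole table, 40 of 13886 genes (0.288%) passed an adjusted p of 0.05, 32 higher (0.23%) and 8 lower (0.0576%) with E2. The test was limma with a mean-variance trend on the authors' log2 CPM, with Benjamini-Hochberg adjustment over all genes, and every difference below is E2 minus OVX in log2 CPM. Of the 70 members, 2 passed (2.86%), 1 in each direction. At an unadjusted p under 0.05 the count was 13 members (18.6%) against 8.56% of all genes (4.21% higher, 4.34% lower). These were 6 higher members, *Robo3*, *Nrp2*, *Sema5a*, *Sema6c*, *Sema5b* and *Ntn4*, and 7 lower ones, *Epha4*, *Epha7*, *Slit3*, *Slit1*, *Plxnd1*, *Plxnb2* and *Ntng2*. The OVX and E2 libraries did not overlap for 14 members (20.0%), 4 higher and 10 lower, against 13.7% of all genes (6.85% higher, 6.82% lower). Most differences were small: 25 members were higher and 45 lower, with a median of -0.03 beside 0.00 over all genes. Ligands (0 passing, 7 with unadjusted p under 0.05, median -0.04) and receptors (2 passing, 6 with unadjusted p under 0.05, median -0.02) were close in both respects. The libraries hold bulk RNA, so a lower level with fewer cells of a type and a lower level in each cell cannot be told apart.

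**Figure D1:**
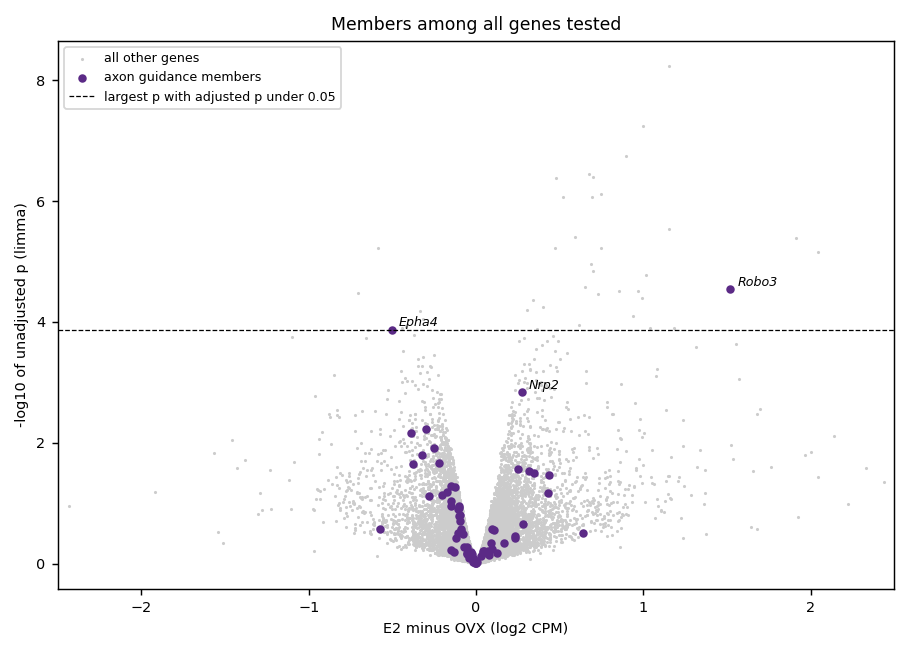
Each point is a gene, placed by its difference (E2 minus OVX, log2 CPM, horizontal) and by -log10 of its unadjusted limma p (vertical), with the 70 members as large purple points and the dashed line at the largest p that passed, 0.000135. Only *Robo3* and *Epha4* lie on or above the line among the members, *Nrp2* comes next, and 17 genes lie beyond the horizontal limits of 2.5.

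Levels were compared between genes as CPM per kilobase of the longest annotated transcript. By this measure *Efnb3*, a ligand known from the midline of the developing nervous system, was the highest member at 67.4 CPM per kb (range over 6 libraries 60.5 to 72.0), at rank 937 of 13881 genes with a length. *Sema6b*, a transmembrane semaphorin that binds plexin-A receptors, followed at 53.1, then *Nrp2* at 43.1 and *Unc5a*, a receptor that mediates repulsion by netrin, at 38.9. The ranges of *Sema6b* (48.8 to 58.4) and *Nrp2* (36.3 to 49.4) overlapped, as did those of *Nrp2* and *Unc5a* (34.1 to 41.7). *Slit1* at 26.2, *Efna3* at 24, and *Ephb6* and *Plxna1*, both at 21.1, led their own roles. At the bottom, *Epha2*, an Eph receptor best known from epithelia, stood at 0.247, and *Robo3* at 0.859 was at rank 12618. Levels thus ranged widely within each family, as shown for every member in the plot of CPM per kb. Some roles were mostly 1 member, such as the neuropilins with *Nrp2*. Plexins were spread more evenly, with *Plxna1* at 17.8 to 21.5% of their summed CPM per kb.

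**Figure D2:**
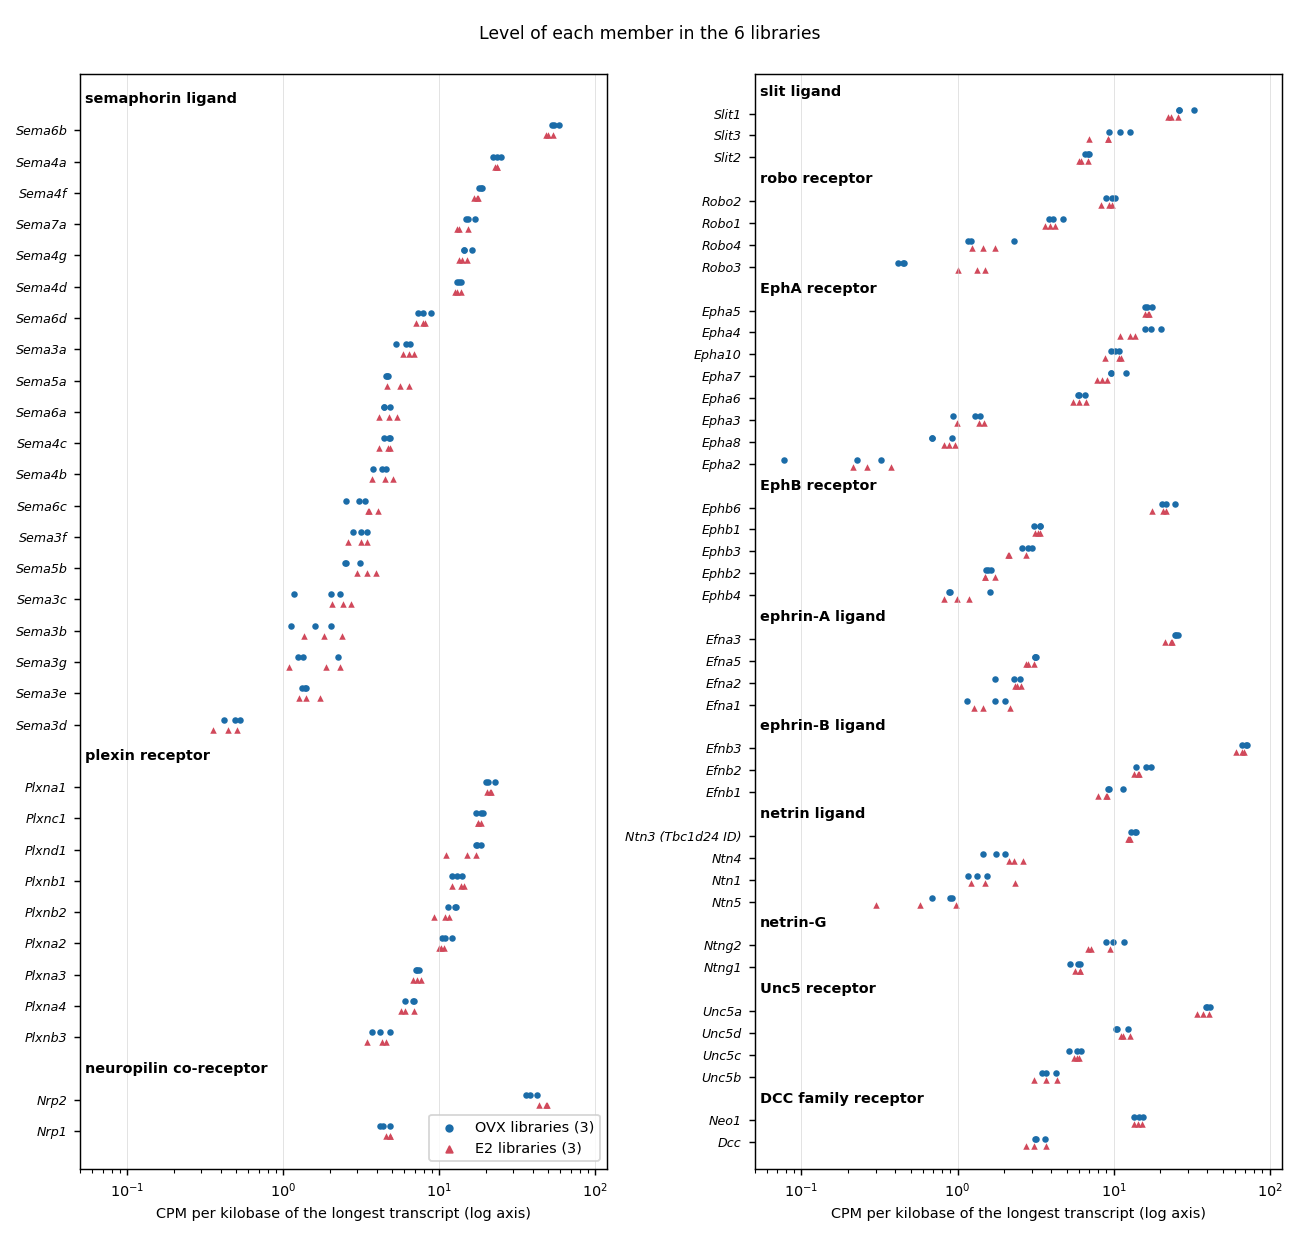
Level of each of the 70 members in the 3 OVX (blue circles) and 3 E2 libraries (red triangles), in CPM per kilobase of the longest transcript on a log axis, grouped by role and ordered by level. *Efnb3* is highest at a mean of 67.4 and *Epha2* lowest at 0.247. Most members' circles and triangles overlap, and *Robo3* and *Epha4* are among the 14 members (20.0%, beside 13.7% of all genes) without overlap between groups.

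The row labelled *Ntn3* needs care. Its identifier, ENSMUSG00000036473, belongs to *Tbc1d24* in the GENCODE M21 annotation, a neighbour that shares 89 exonic bases with *Ntn3*, and its 13 CPM per kb is therefore not a netrin level. The gene annotated as *Ntn3*, ENSMUSG00000117406, was in the table without a symbol, at log2 CPM 4.18, 4.51 and 4.16 in OVX and 4.18, 4.38 and 4.34 in E2 libraries, a difference of 0.02 (SE 0.12, limma adjusted p = 0.986). The symbol rule keeps the labelled row among the 70, and its own difference was -0.10 (SE 0.06, limma adjusted p = 0.70). Libraries were unstranded, so reads of genes that overlap on opposite strands could not be separated. With such a gene *Plxna1* shared 10.7% of its exonic bases, *Efna3* 14.1% and *Ntn5* 23.4%. *Ntng2* shared 14.0% with a gene on its own strand, where strand would not separate the reads either.

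Among Slits and Robos, *Robo3* showed the largest difference of any member. *Robo3* (ENSMUSG00000032128, chr9:37415669-37433246, minus strand, no exonic base shared with another gene) encodes the receptor known for letting commissural axons cross the midline. Unlike Robo1 and Robo2, mammalian Robo3 binds Slits poorly and is a receptor for Nell2. Its log2 CPM was 1.17, 1.18 and 1.06 in the 3 OVX libraries and 2.74, 2.33 and 2.90 in the 3 E2 libraries, from rebuilt counts of 63, 77 and 58 and of 201, 170 and 242. Every E2 library stood above every OVX library, and the gap between the groups was larger than the range within either. *Robo3* rose from 1.14 ± 0.07 to 2.66 ± 0.30 (SD, n = 3 libraries), a difference of 1.52 (SE 0.25, 95% interval 0.99 to 2.05), or 2.87-fold, with a limma adjusted p of 0.0189. It remained a minor Robo, with 2.61 to 2.93% of the summed CPM per kb of the 4 Robos in OVX and 6.92 to 8.66% in E2 libraries. Set against the mean of *Robo1* and *Robo2* in the same library it stood at -4.55 ± 0.09 in OVX and -2.94 ± 0.23 in E2, a difference of 1.61 (two-sided exact permutation p = 0.1, the smallest that 3 against 3 allows). Such ratios were tested only for *Robo3* and *Epha4*, which had passed in the same libraries, so their p is no separate support. Without E2 replicate 1 the limma adjusted p of *Robo3* was 0.102, without E2 replicate 3 it was 0.0847, and with no weights or trend 0.175, at differences of 1.39 to 1.52.

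No other member of the family passed the test. *Robo2*, the main Robo by level at 9.41 CPM per kb, had a difference of -0.08 (95% interval -0.25 to 0.09). The secreted repellents were lower in all 3 cases, with a median of -0.25, and 2 of the 3 had an unadjusted p under 0.05. *Slit3* stood at log2 CPM 6.06, 5.85 and 5.62 in OVX and 5.58, 5.19 and 5.59 in E2 libraries, a difference of -0.39 (SE 0.12, limma adjusted p = 0.332). Its groups did not overlap, but OVX replicate 3 and E2 replicate 3 were the closest pair, and the difference was -0.25 without E2 replicate 2. *Slit1*, the most abundant Slit, stood at 7.55, 7.21 and 7.22 in OVX and 7.19, 6.99 and 7.05 in E2 libraries, a difference of -0.25 (SE 0.09, limma adjusted p = 0.404). Again the groups did not overlap, with OVX replicate 1 apart from the rest, and the difference was -0.14 without that library. Summed over the 3 Slits, the level was 42.6 to 52.7 CPM per kb in OVX and 36.2 to 41.2 in E2 libraries.

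**Figure D3:**
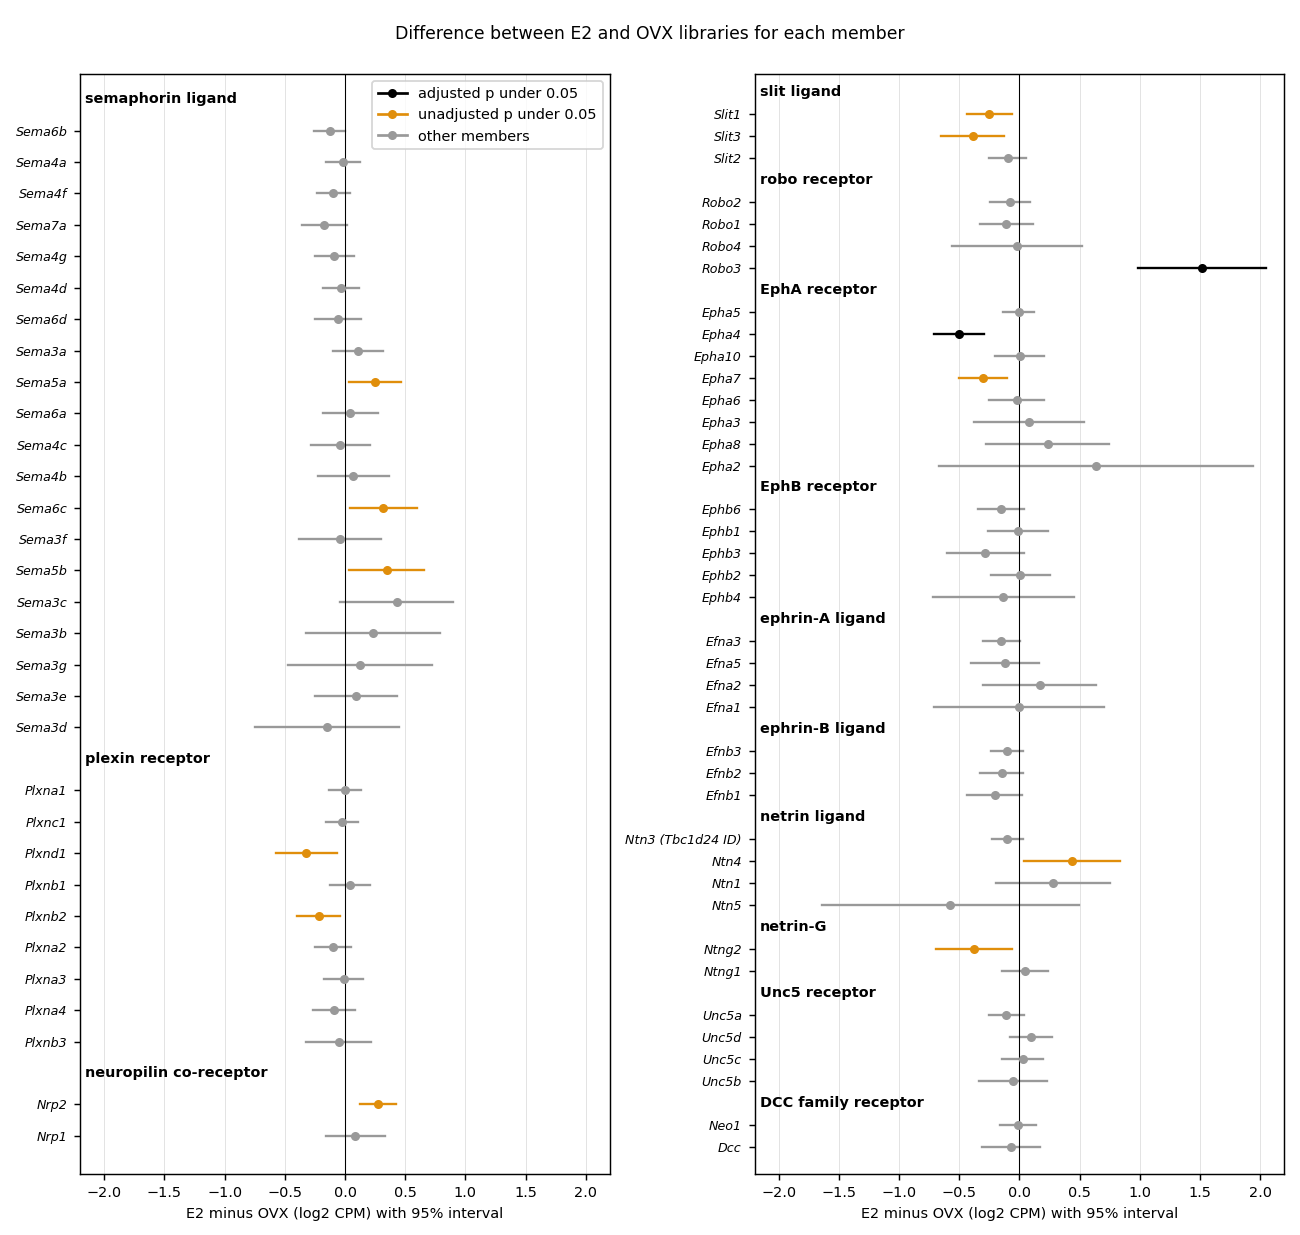
Difference between E2 and OVX libraries (log2 CPM, point) with its 95% interval from limma (line) for each member, grouped by role. Black marks the 2 members with an adjusted p under 0.05, *Robo3* at 1.52 and *Epha4* at -0.50, and orange the other members with an unadjusted p under 0.05. The remaining intervals include 0, and those of the sparse members *Epha2* and *Ntn5* are the widest.

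Ephrins and their receptors leaned lower with E2, with 14 of 20 members below 0 and 1 passing the test. *Epha4* (ENSMUSG00000026235, chr1:77367185-77515088, minus strand, no shared exonic base) is an unusual Eph receptor in that it binds ephrins of both the A and the B class. Its log2 CPM was 7.0, 6.64 and 6.78 in OVX and 6.35, 6.13 and 6.44 in E2 libraries, from rebuilt counts of 3630, 3415 and 3075 and of 2460, 2379 and 2813. Every E2 library lay below every OVX library. *Epha4* fell from 6.81 ± 0.18 to 6.30 ± 0.16 (SD, n = 3 libraries), a difference of -0.50 (SE 0.10, 95% interval -0.71 to -0.30), or 0.706 times the OVX level, with a limma adjusted p of 0.0469. Its share of the summed EphA level went from 25.5 to 30.5% in OVX to 19.9 to 23.6% in E2 libraries. Relative to the mean of the other EphA receptors in the same library, the difference was -0.59 (two-sided exact permutation p = 0.1, the smallest possible) and -0.38 without OVX replicate 1. That mean gives equal weight to the sparse *Epha2*, with rebuilt counts of 8 to 44 and a difference of 0.64. The value of -0.59 is therefore not a larger fall of *Epha4* than -0.50.

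This call lay just inside the threshold. Leaving out OVX replicate 1, OVX replicate 3, E2 replicate 1 or E2 replicate 2 gave limma adjusted p values of 0.211, 0.105, 0.114 and 0.202, and the difference ranged from -0.58 to -0.40 over the libraries left out. The excitatory forebrain markers moved in the same direction, their mean lying at log2 CPM 5.36 to 5.78 in OVX and 4.99 to 5.36 in E2 libraries. With that mean as a covariate, an alternative added after the data had been seen, the difference of *Epha4* was -0.25 (limma adjusted p = 1.0) and that of *Robo3* was 1.73 (limma adjusted p = 0.310). Over all genes 7 passed in that fit. That mean was lower in every E2 library than in every OVX library, though OVX replicate 3 and E2 replicate 3 both stood at 5.361. With 3 libraries per group, its part and that of the treatment cannot be told apart. The plot of settings shows both members under each alternative.

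**Figure D4:**
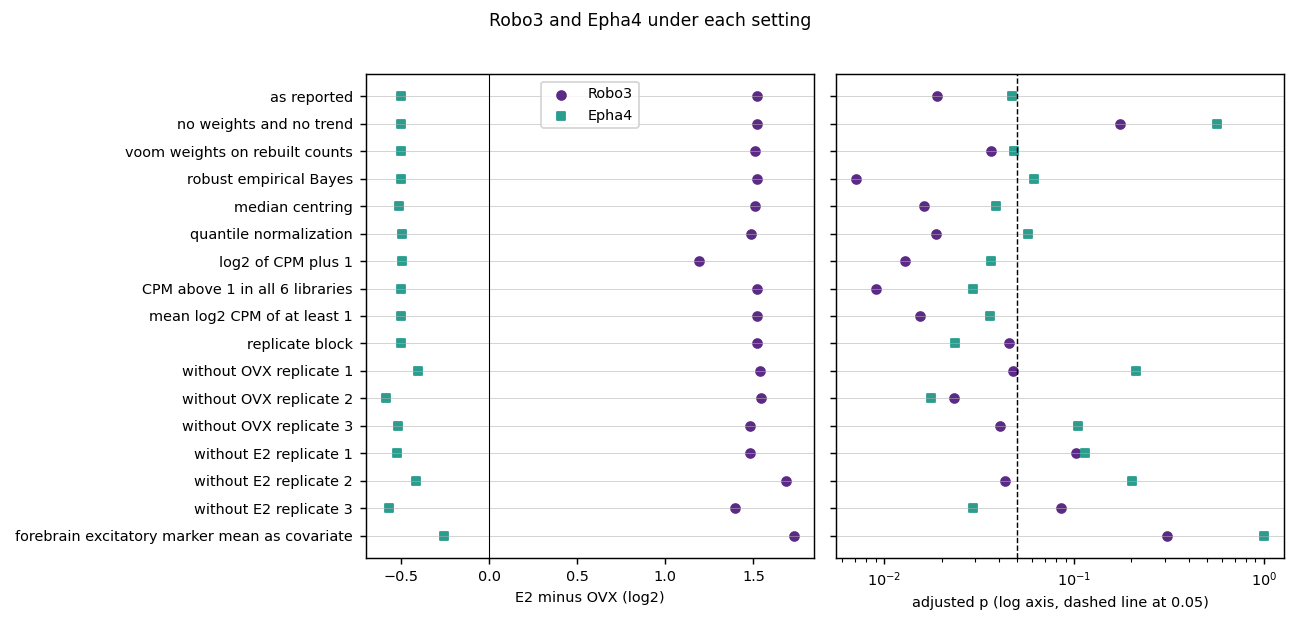
*Robo3* (purple circles) and *Epha4* (green squares) as reported and under each of the 16 alternatives: the difference (E2 minus OVX, log2, left) and the limma adjusted p (log axis, right, dashed line at 0.05). *Robo3* lies between 1.19 and 1.73 and left of the dashed line in 12 alternatives, *Epha4* between -0.58 and -0.25 and left of it in 8.

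*Epha7*, another receptor for ephrin-A ligands, had the next smallest p of the family. It stood at log2 CPM 6.35, 6.03 and 6.02 in OVX and 5.73, 5.93 and 5.82 in E2 libraries, a difference of -0.30 (SE 0.09, limma adjusted p = 0.316), with no overlap between the groups. Without OVX replicate 1 the difference was -0.19. *Epha5*, the most abundant EphA receptor at 16.6 CPM per kb, had a difference of -0.0079 (95% interval -0.14 to 0.12). The summed EphA level was 61.8 to 66.6 CPM per kb in OVX and 54.5 to 58.9 in E2 libraries. None of the 5 EphB receptors had an unadjusted p under 0.05 by limma. *Ephb6*, whose kinase domain is inactive, had a difference of -0.15 (limma adjusted p = 0.70, and -0.072 without OVX replicate 1 or -0.065 without E2 replicate 1) and *Ephb3* one of -0.28 (limma adjusted p = 0.642). *Epha2* was too sparse to compare, with rebuilt counts of 8 to 44 and log2 CPM of -1.73, -0.16 and 0.34 among the OVX libraries alone.

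The ephrins themselves had no member with an unadjusted p under 0.05 by limma and none that passed the adjusted threshold. All 3 ephrin-B ligands were lower, with a median of -0.15. *Efnb1* stood at log2 CPM 4.92, 4.90 and 5.22 in OVX and 4.86, 4.89 and 4.69 in E2 libraries, a difference of -0.21 (SE 0.11, limma adjusted p = 0.631), which was -0.10 without OVX replicate 3. *Efnb3*, the highest member of all, had a difference of -0.10 (95% interval -0.24 to 0.03), and of -0.052 without E2 replicate 3. *Efna3* stood at 5.90, 5.87 and 5.94 in OVX and 5.66, 5.81 and 5.78 in E2 libraries, without overlap, a difference of -0.15 (SE 0.07, limma adjusted p = 0.590).

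Semaphorins and their receptors, 31 members, had none past the threshold by limma and 6 with an unadjusted p under 0.05. *Nrp2*, the co-receptor through which class 3 semaphorins such as Sema3f signal, had the smallest p of them (0.00147). It stood at log2 CPM 7.93, 8.02 and 8.15 in OVX and 8.37, 8.35 and 8.19 in E2 libraries, a difference of 0.27 (SE 0.07, 95% interval 0.13 to 0.42, limma adjusted p = 0.173). The groups did not overlap, though OVX replicate 3 and E2 replicate 3 were close. *Nrp2* made up 88.3 to 91.1% of the summed neuropilin level per kb in every library, and that sum was 41.1 to 46.6 CPM per kb in OVX and 48.0 to 54.2 in E2 libraries. Rebuilt counts of *Nrp2* were 6897 to 11092 per library.

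Of 9 plexins, 8 were lower with E2, with a median of -0.05. *Plxnd1*, the receptor of Sema3e, stood at log2 CPM 7.0, 6.92 and 6.90 in OVX and 6.70, 6.26 and 6.89 in E2 libraries, a difference of -0.32 (SE 0.12, limma adjusted p = 0.428). E2 replicate 3 was nearly at the OVX level, and E2 replicate 2 carried much of the difference, which was -0.14 without that library. *Plxnb2*, a receptor of class 4 semaphorins, had a difference of -0.22 (SE 0.08, limma adjusted p = 0.465), with E2 replicate 1 inside the OVX range, and one of -0.13 without E2 replicate 2. *Plxna1*, the highest plexin, had one of -0.00069 (95% interval -0.13 to 0.13).

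The 20 semaphorins split evenly, 10 higher and 10 lower, with a median of 0.01. The 3 with an unadjusted p under 0.05 were all higher and all transmembrane proteins of classes 5 and 6. *Sema5a* stood at log2 CPM 5.68, 5.65 and 5.62 in OVX and 6.13, 5.92 and 5.65 in E2 libraries, a difference of 0.25 (SE 0.10, limma adjusted p = 0.499), and E2 replicate 3 lay within the OVX range. Without E2 replicate 1 the difference was 0.14. *Sema6c* stood at 3.70, 3.97 and 4.09 in OVX and 4.36, 4.16 and 4.19 in E2 libraries, a difference of 0.32 (SE 0.13, limma adjusted p = 0.503), without overlap, and of 0.21 without OVX replicate 1. *Sema5b* had a difference of 0.34 (SE 0.14, limma adjusted p = 0.523), with E2 replicate 2 below OVX replicate 2. *Sema6b*, the most abundant semaphorin, leaned the other way at -0.13 (95% interval -0.26 to 0.00, limma adjusted p = 0.60). Its direction differed from that of *Sema6c*, a protein of the same class.

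**Figure D5:**
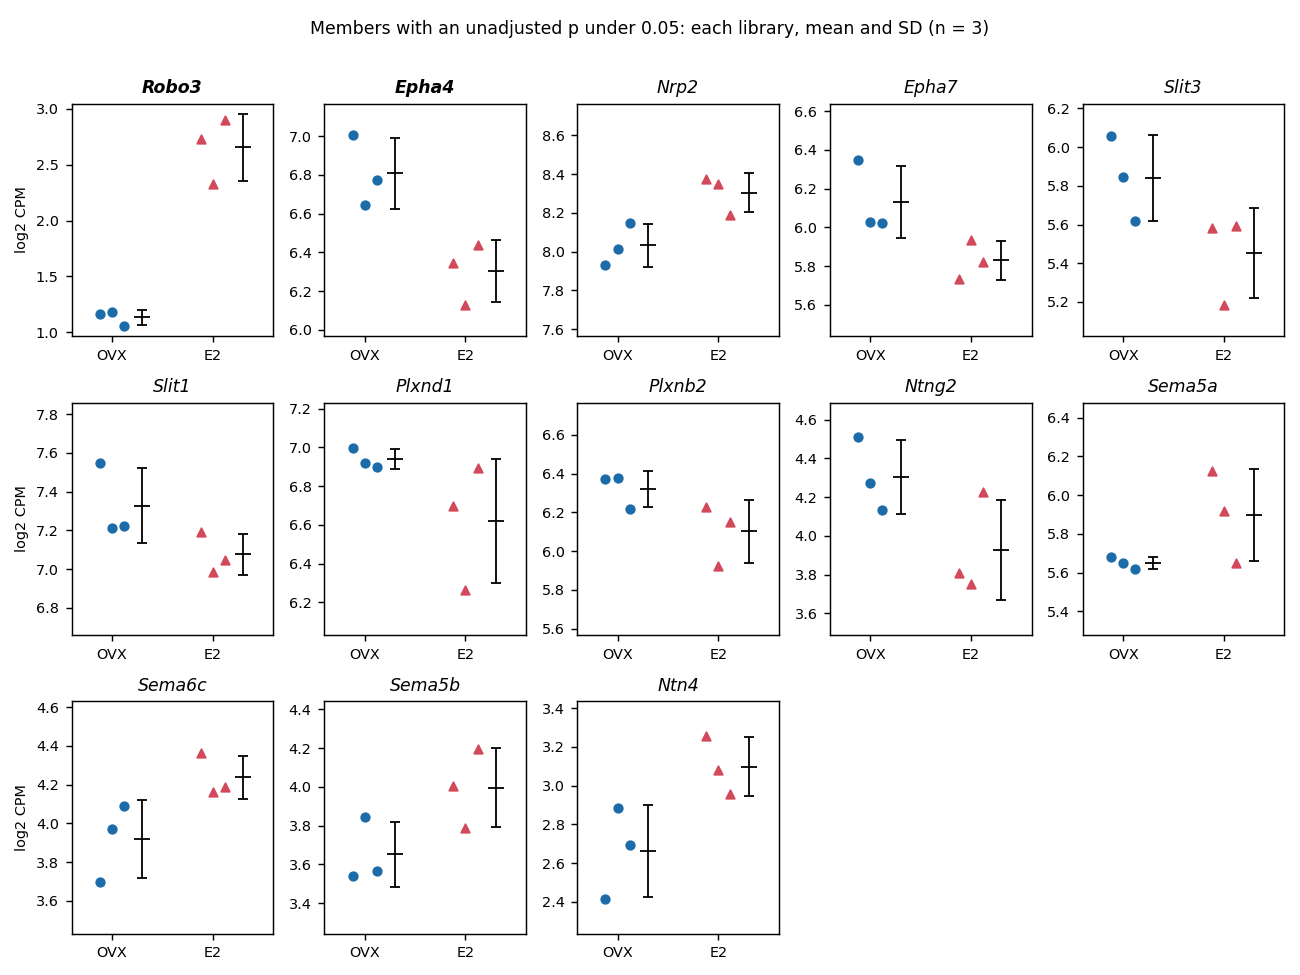
Log2 CPM in each OVX (blue circles) and E2 library (red triangles) for the 13 members with an unadjusted limma p under 0.05, in order of p, with the mean and SD of each group (n = 3) at the right of its points. Each panel has its own vertical range. *Robo3* and *Epha4*, in bold, passed the adjusted threshold, and in *Plxnb2*, *Ntng2*, *Sema5a* and *Sema5b* the groups overlap.

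Netrins and their receptors, 12 members, had none past the threshold by limma and 2 with an unadjusted p under 0.05, in opposite directions. *Ntn4*, a netrin of basement membranes, stood at log2 CPM 2.41, 2.89 and 2.69 in OVX and 3.26, 3.08 and 2.96 in E2 libraries, a difference of 0.43 (SE 0.18, limma adjusted p = 0.533), without overlap. *Ntng2*, a membrane-anchored netrin-G that acts at synapses, stood at 4.51, 4.27 and 4.13 in OVX and 3.81, 3.75 and 4.22 in E2 libraries, a difference of -0.38 (SE 0.15, limma adjusted p = 0.477). E2 replicate 3 was inside the OVX range, and with the excitatory forebrain marker mean as a covariate the difference was 0.029. *Ntng1*, its relative, had a difference of 0.04 (95% interval -0.15 to 0.24).

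No netrin receptor had an unadjusted p under 0.05 by limma. *Unc5a* had a difference of -0.11 (95% interval -0.26 to 0.03, and -0.046 without E2 replicate 2), *Neo1*, which binds netrins and repulsive guidance molecules, one of -0.012 (-0.16 to 0.14), and *Dcc*, the receptor for netrin attraction, one of -0.07 (-0.31 to 0.17). *Neo1*, at 14.4 CPM per kb, was the more abundant of the last pair, and *Dcc* stood at 3.24. *Ntn5* was sparse, at log2 CPM 0.02, -0.91 and 0.79 in the E2 libraries, and had a difference of -0.58 (95% interval -1.64 to 0.49).

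Partner genes that act with these ligands and receptors, such as other ligands, co-receptors and cytoplasmic effectors, were taken from 4 lists, and 77 of 78 were measured. None passed the adjusted threshold by limma, in the reported fit or in any alternative, and 13 (16.9%) had an unadjusted p under 0.05, 3 higher and 10 lower, beside 8.56% of all genes. In all, 23 were higher and 54 lower, with a median of -0.04. Of the Slit and Robo partners, *Enah*, an actin regulator, had a difference of 0.22 (limma adjusted p = 0.264) and *Nell1* one of -0.25 (limma adjusted p = 0.355). *Nell2*, the ligand of Robo3, named for that role although it falls outside the naming rule, had a difference of -0.17 (SE 0.06, limma adjusted p = 0.451), opposite in sign to that of its receptor. In the semaphorin list the smallest p values were those of *Nrcam*, a cell adhesion molecule in neuropilin complexes, at -0.17 (limma adjusted p = 0.372), and *Arhgef12*, which acts downstream of plexin-B, at -0.18 (limma adjusted p = 0.429). In the ephrin list they were *Vav2*, which acts downstream of Eph receptors, at 0.45 (limma adjusted p = 0.422), and *Kalrn* at -0.19 (limma adjusted p = 0.543). In the netrin list they were *Trio*, an exchange factor acting with Dcc, at -0.24 (limma adjusted p = 0.428), and *Trim9* at -0.11 (limma adjusted p = 0.656).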

How the data were processed

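RNA from HA-tagged ribosomes of pooled MeA punches was sequenced as unstranded poly(A) libraries. Per the submitters' processing notes the tools were FastQC 0.11.8, Trimmomatic 0.38, STAR 2.6.0a and limma, with mm10 and GRCm38 as builds. The deposited table used here holds the authors' log2 CPM per gene, made by voom after TMM scaling of genes that passed their minimum count. A second deposited table holds the authors' own comparison (log2 fold changes and p-values) and was not used.

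Genes were tested with limma 3.58.1 in R 4.3.3 (lmFit, then eBayes with a trend), E2 against OVX, over all 13886 genes and 6 libraries, two-sided, with Benjamini-Hochberg adjustment and a threshold of 0.05. The prior had 9.55 degrees of freedom, and differences had a median SE of 0.107. The study used voom weights, which are an alternative here because counts were not in the files used. Counts were rebuilt from the log2 CPM with the lowest value of each library standing for a count of 0 and an offset of 0.5, and they came out with at most 2 decimals in 100% of genes, with a tolerance of 0.001, and 68.2 to 72.0% of them whole. Ratios within a library were tested by two-sided exact permutation, for *Robo3* and *Epha4* only. The fit was checked on simulated data. Genomic positions and transcript lengths are from GENCODE M21.

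Members were found by symbol, and the members and gene lists were chosen with earlier results of these data known. The text names each member with an unadjusted or adjusted p under 0.05, the member of each of 13 roles with the smallest p or the highest level, the 2 with the widest range within a group, and the 2 partners of each list with the smallest p. Alternatives were other tests, scalings, filters and pseudocounts, the replicate number as a block, and each library left out. The sample labels do not link libraries of equal replicate number. Deviations of such pairs correlated at -0.12 to -0.02 and those of other pairs at -0.07 to 0.16. With 3 libraries per group these values cannot show whether pairs shared a step.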

Additional observations from a re-analysis of the deposited data

How the results depend on the processing

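*Robo3* passed in 12 and *Epha4* in 8 of 16 alternatives, and no other named member passed in any. The count of members past the threshold, 2 as reported, was 0 with neither weights nor trend, 1 with robust empirical Bayes, 1 after quantile normalization, 0 with the excitatory forebrain marker mean as a covariate (added after the data had been seen), and 0 to 2 with each library left out, 0 without E2 replicate 1 and 1 without OVX replicate 1 or 3 or E2 replicate 2 or 3. Over all genes, 40 as reported, it was 0 with neither weights nor trend (1017 at an unadjusted p under 0.05 by limma), 7 with the covariate and 20 to 66 with each library left out: 21 without OVX replicate 1, 26 without E2 replicate 1, 20 without E2 replicate 2 and 66 without E2 replicate 3. *Epha4* had a limma adjusted p of 0.0613 with robust empirical Bayes, 0.0570 after quantile normalization and 0.565 with neither weights nor trend. With the replicate number as a block, 35 genes and 2 members passed, *Robo3* (limma adjusted p = 0.0452) and *Epha4* (limma adjusted p = 0.0234). Some differences changed sign. With the covariate *Epha2* was at -0.50, and the others were *Epha5* 0.014, *Ephb6* 0.034, *Neo1* 0.013, *Ntng2* 0.029, *Plxna1* 0.12 and *Robo2* 0.00017. After quantile normalization *Epha5* was at 0.0026 and *Plxna1* at 0.013, and with voom weights *Plxna1* was at 0.00085. With each library left out, *Dcc* ranged from -0.19 to 0.029, *Epha5* from -0.036 to 0.032, *Neo1* from -0.064 to 0.039, *Ntng1* from -0.018 to 0.090 and *Plxna1* from -0.034 to 0.054. The cause of these changes was not tested. Between scalings the median over all genes moved by less than 0.1. Depth limits mainly *Epha2*, *Ntn5* and *Robo3*, which have the fewest reads among the named members.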
